A study of Mus musculus with 12 samples.

Results

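The genes described here are those of the mouse that carry mitochondrial ribosomal protein symbols, Mrpl or Mrps, which name most proteins of the mitochondrial ribosome. All rows of the deposited array table that carry exactly 1 symbol beginning Mrpl or Mrps and a digit were taken, and where a gene had several such rows, the one with the highest mean over the arrays was kept. This gave 77 genes of 19937 genes tested, 48 named for the large subunit (Mrpl) and 29 for the small subunit (Mrps). RefSeq lists 78 protein-coding genes with symbols of this form, and the remaining one sits on 1 row that carries several symbols and was not used. RefSeq also lists 6 pseudogenes with such symbols, and 0 of them were among the 77.

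White adipose tissue was taken from male mice aged 18 weeks that were either Ahnak knockout (KO) or wild type (WT). Ahnak encodes a very large scaffold protein. For 12 weeks mice of each genotype had eaten either a high-fat diet (HFD), 60% of it fat, or chow, which makes 4 groups of 3 arrays each. The labels do not name the part of the gene that was removed, the strain, the fat depot, or whether each array holds RNA of 1 animal. P-values therefore reflect the spread among these arrays, and that spread may be technical.

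Mitochondrial ribosomes translate the few messages encoded by mitochondrial DNA, all of which encode core subunits of the respiratory chain and ATP synthase. The ribosomal RNAs are made inside the organelle, whereas every ribosomal protein is made in the cytosol and imported, so the assembly of the large and the small subunit draws on both genomes. In fat cells mitochondria oxidise fuel and supply citrate for fatty acid synthesis, and transcription of genes for mitochondrial proteins is known to involve the factors NRF1, GABPA (an ETS-family factor), YY1 and ERRA together with the coactivator encoded by Ppargc1a.

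Promoter stretches of 6 of the genes are shown because they hold, or lack, letters known to be bound by those factors. Mrpl9, Mrpl37 and Mrps5 are among the genes called below, Mrpl12 had the smallest p on chow, and Mrpl3 and Mrps22 are uncalled examples with the ETS letters. They come from RefSeq promoter windows on GRCm38.p6, written 5′ to 3′ on the strand of the gene, and capitals mark the motif searched for. The Mrpl9 and Mrpl12 stretches lie at chr3:94443306-94443335 (plus strand) and chr11:120484547-120484636 (plus strand), and their capitals mark the NRF1 motif, in which the fifth base may be any.
Mrpl9: ctGCGCATGCGCggggtccttcttccgcct
Mrpl12: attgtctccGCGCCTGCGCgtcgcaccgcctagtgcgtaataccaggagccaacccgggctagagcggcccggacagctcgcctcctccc
The Mrpl3 and Mrps22 stretches lie at chr9:105053208-105053267 (plus strand) and chr9:98601680-98601739 (minus strand), and their capitals mark the GABPA/ETS motif CCGGAAG.
Mrpl3: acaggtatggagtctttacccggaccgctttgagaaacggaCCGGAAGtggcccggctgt
Mrps22: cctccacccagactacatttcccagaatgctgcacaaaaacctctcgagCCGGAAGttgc
The Mrpl37 stretch lies at chr4:107066817-107066846 (minus strand), with the YY1 motif AAGATGGC in capitals, and the Mrps5 stretch lies at chr2:127587366-127587425 (plus strand) and holds none of these motifs.
Mrpl37: cgggcaAAGATGGCggcgtccaggtagagg
Mrps5: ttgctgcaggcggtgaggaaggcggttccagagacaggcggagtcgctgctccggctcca

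Of the 77 genes, 68 had a RefSeq promoter window, which covers 300 bases from 250 before to 50 after the start. On either strand, the GABPA/ETS letters CCGGAAG stood in the windows of 25 of the 68 genes (36.8%), against 13.6% of the 15562 genes tested that had a window. The NRF1 motif was present for 13 genes (19.1%), against 7.87% of all, and the YY1 letters AAGATGGC for 12 genes (17.65%), against 3.77%. The ERRA letters TNAAGGTCA were in 0 of the 68 windows and in 1.16% of all. At least 1 of the NRF1, ETS and YY1 motifs was found in 42 of the 68 (61.8%), against 22.3% of all. None of the 57 matches overlapped a match of another motif. Large subunit genes held the NRF1 letters in 23.8% and the ETS letters in 33.3% of cases, and small subunit genes in 11.5% and 42.3%. Among nuclear respiratory chain genes the NRF1 share was 27.3% and the ETS share 21.2%, and among cytosolic ribosomal protein genes they were 10.2% and 38.8%. The median GC content was 58.5% over the 74 windows of these 68 genes and 57.67% over the windows of all genes tested. These counts describe letters in the reference sequence. Binding was not measured.

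The deposited values are log2 expression values, 1 for each row and array. As a range of probe signals, which does not rank transcript amounts between genes, the means over the 12 arrays ran in the large subunit from Mrpl33 at 6.37 to Mrpl18 at 10.41, and in the small subunit from Mrps10 at 6.56 to Mrps15 at 10.91. Arrays of 1 group correlated with each other at 0.985 to 0.996 across genes. On chow Ahnak itself measured 9.94, 10.06 and 10.08 in WT and 9.31, 9.27 and 9.42 in KO. On HFD it measured 10.27, 9.68 and 10.04 in WT and 9.58, 9.40 and 9.45 in KO. KO arrays were below WT arrays on both diets without overlap (log2 difference -0.69 on chow and -0.52 on HFD), although a signal remained, and which part of the gene the probes read was not given. The 13 measured adipocyte markers averaged 11.68 to 12.50 on the 12 arrays.

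Whole-tissue levels mix cell types, and cell-type markers moved with diet and genotype. The 20 macrophage markers averaged 9.98 to 11.30 in WT on HFD, against 9.03 to 9.19 in KO on HFD. On chow they averaged 8.83 to 9.26 in WT and 8.59 to 8.89 in KO. The adipocyte markers were lowest in the same WT HFD group, at 11.68 to 12.34, against 12.43 to 12.50 in KO on HFD. WT HFD replicate 2 was at the extreme of both, with the highest macrophage and the lowest adipocyte average of all arrays. B cell markers (7 genes) averaged 5.64 to 6.10 in WT and 5.32 to 5.55 in KO on chow, and 5.89 to 6.15 and 5.41 to 5.54 on HFD. T cell markers (8 genes) averaged 5.80 to 6.33 in WT and 5.72 to 5.77 in KO on chow, and 6.20 to 6.42 and 5.64 to 6.13 on HFD. Both averages were thus lower in KO on either diet without overlap. On HFD, however, 5 of the 8 T cell markers lay above 0 in KO minus WT (median 0.04), and Il7r was lowest at -3.52. In bulk tissue, fewer cells of a type and less RNA per cell cannot be told apart.

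On chow, the mitochondrial ribosomal proteins as a family sat slightly higher in KO than in WT fat, but no single gene passed the test. Of the 77 genes, 74 had a KO minus WT difference above 0, against 53.6% of all genes tested. The median difference was 0.12 on the log2 scale, or 1.09-fold, against 0.01 over all genes, and the differences ran from -0.16 for Mrpl19 to 0.28 for Mrps6. The B cell and T cell markers separated the same chow groups, with medians of -0.37 (2 of 7 above 0) and -0.23 (0 of 8 above 0) and none called. The macrophage averages overlapped on chow, but the median was -0.25 (2 of 20 above 0), with none called. The part of these markers in the result was not tested. The subunits had like medians, 0.12 for the large (47 of 48 above 0) and 0.12 for the small (27 of 29 above 0).

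Averaged over the 77 genes, the WT chow arrays measured 8.67, 8.67 and 8.60 and the KO chow arrays 8.76, 8.85 and 8.69. Every KO array was above every WT array, with the closest pair 8.69 against 8.67. KO chow replicate 2 was the highest array, and it held the highest value of the 12 arrays for 37 of the 77 genes. Without it the median difference was 0.09 with 66 of 77 above 0, and over all 12 single-array omissions and the other settings the median stayed between 0.09 and 0.15.

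**Figure D1:**
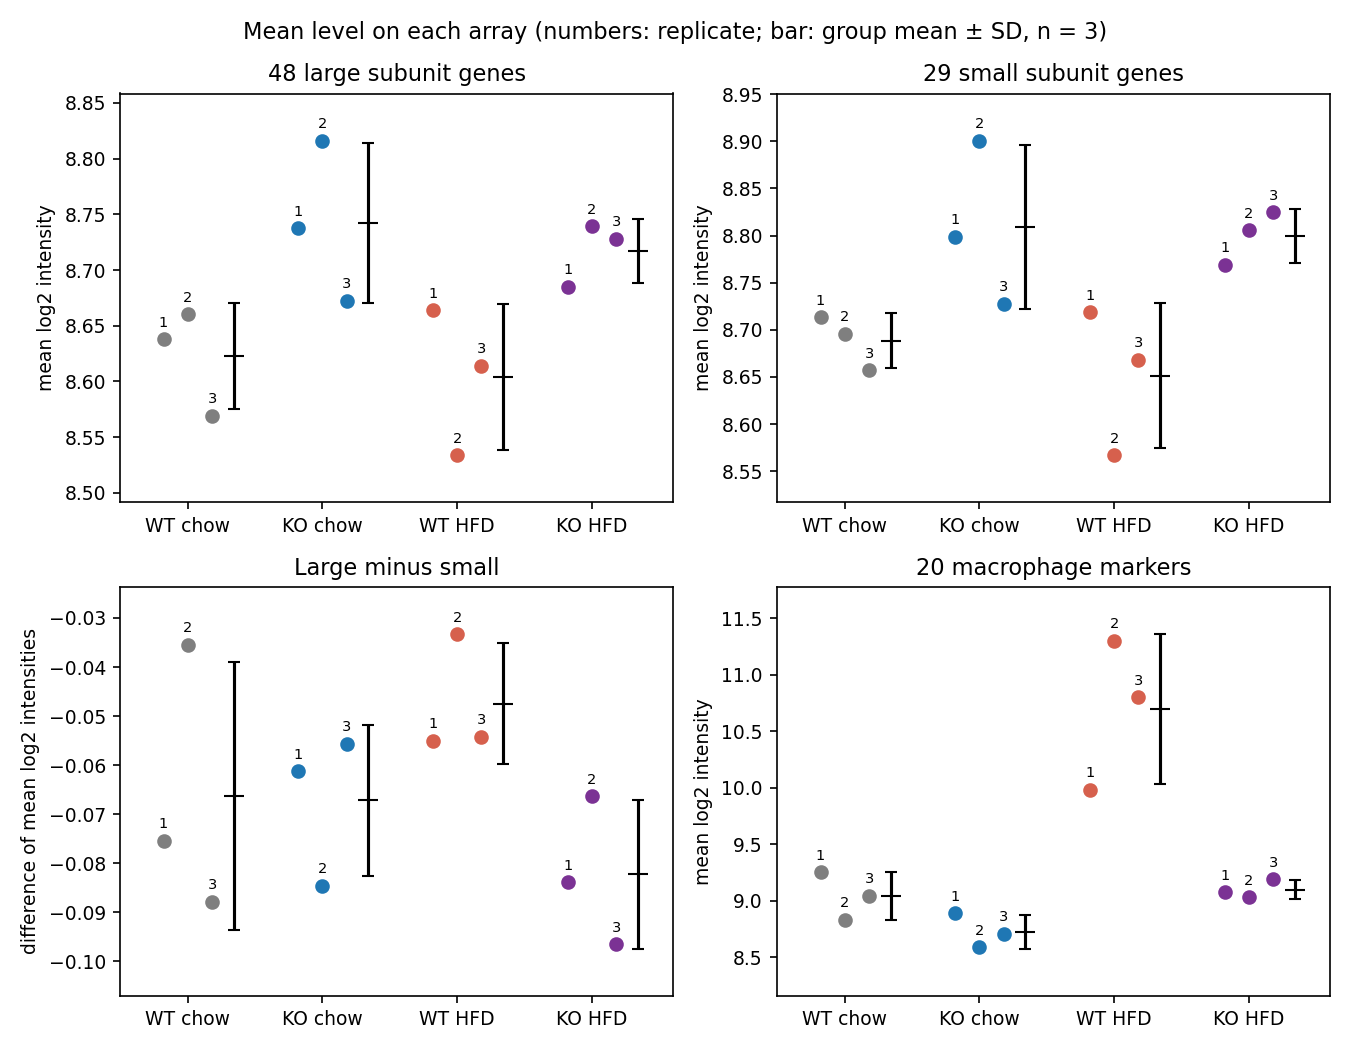
Mean log2 level on each array (numbered points) in the 4 groups of 3 arrays, with the group mean ± SD as a bar, for the 48 large subunit genes, the 29 small subunit genes, the large minus small difference and the 20 macrophage markers, each panel with its own axis. Both subunit means lie higher in KO than in WT on each diet without overlap, and the macrophage mean is highest in WT on HFD, at 9.98 to 11.30.

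With limma and Benjamini-Hochberg adjustment over all genes, 0 of the 77 passed an adjusted p under 0.05 on chow, and the share passing among all 19937 genes was also 0%. At an unadjusted p under 0.05 there were 14 of 77 (18.2%), against 5.6% of all genes. For 25 genes every KO array exceeded every WT array, where 5.79% of all genes did so, and for 1 gene, Mrpl19, every KO array was lower, where 5.74% of all genes were. Single genes therefore gave no call, while the shares above 0 and without overlap were above those of all genes. No other setting tried gave a call among the 77 on chow.

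Mrpl12 had the smallest p on chow. It is a protein of the large-subunit stalk that is also known to bind the mitochondrial RNA polymerase. It measured 8.67, 8.76 and 8.63 in WT and 8.97, 8.99 and 8.85 in KO on chow. The KO arrays were all higher, with a difference of 0.25 ± 0.07 (SE, n = 3 a group), and the adjusted p by limma was 0.680. On HFD the same gene measured 8.61, 8.65 and 8.66 in WT and 8.61, 8.80 and 8.71 in KO, and the genotypes overlapped, with a difference of 0.07 ± 0.07.

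Mrps30 came next, with 8.36, 8.30 and 8.14 in WT and 8.51, 8.53 and 8.53 in KO on chow. The groups did not overlap and the difference was 0.25 ± 0.07 (limma adjusted p = 0.694). The protein carries a small-subunit name but is found in the large subunit in structures of the mammalian mitoribosome. Mrpl2 (0.21), Mrps5 (0.21) and Mrpl38 (0.19) followed, none of them past the threshold.

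On the other side of 0 on chow stood Mrpl19, Mrps10 and Mrps24. Mrpl19, a large-subunit protein with a bacterial counterpart, measured 7.51, 7.57 and 7.68 in WT and 7.51, 7.40 and 7.39 in KO, so that the nearest arrays of the genotypes tied at the second decimal. Its difference was -0.16 ± 0.09 (limma adjusted p = 0.922). Mrps10 (-0.08) and Mrps24 (-0.02) were closer to 0 than their standard errors of 0.19 and 0.08.

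On HFD, 9 mitochondrial ribosomal protein genes were higher in KO than in WT past the threshold and none was lower. They were Mrpl9, Mrpl38, Mrpl2 and Mrpl37 of the large subunit and Mrps35, Mrps30, Mrps31, Mrps5 and Mrps15 among the small-subunit names, with rises of 1.22-fold to 1.36-fold. The median over all 77 genes was 0.10 (1.07-fold), against 0.02 over all genes, and 64 of 77 lay above 0, against 54.3% of all genes. Differences ran from -0.21 for Mrps33 to 0.44 for Mrps35.

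The 9 calls are 11.7% of the family. Among all 19937 genes, 13.5% passed in this comparison, 6.65% as higher and 6.85% as lower, so the share called was close to the background and the direction was one-sided. At an unadjusted p under 0.05 there were 25 of 77 (32.5%), against 26.8% of all genes. Every KO array exceeded every WT array for 30 genes (39.0%), where 17.4% of all genes did so, and every KO array was lower for 1 gene (Mrps33), where 13.5% of all genes were.

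**Figure D2:**
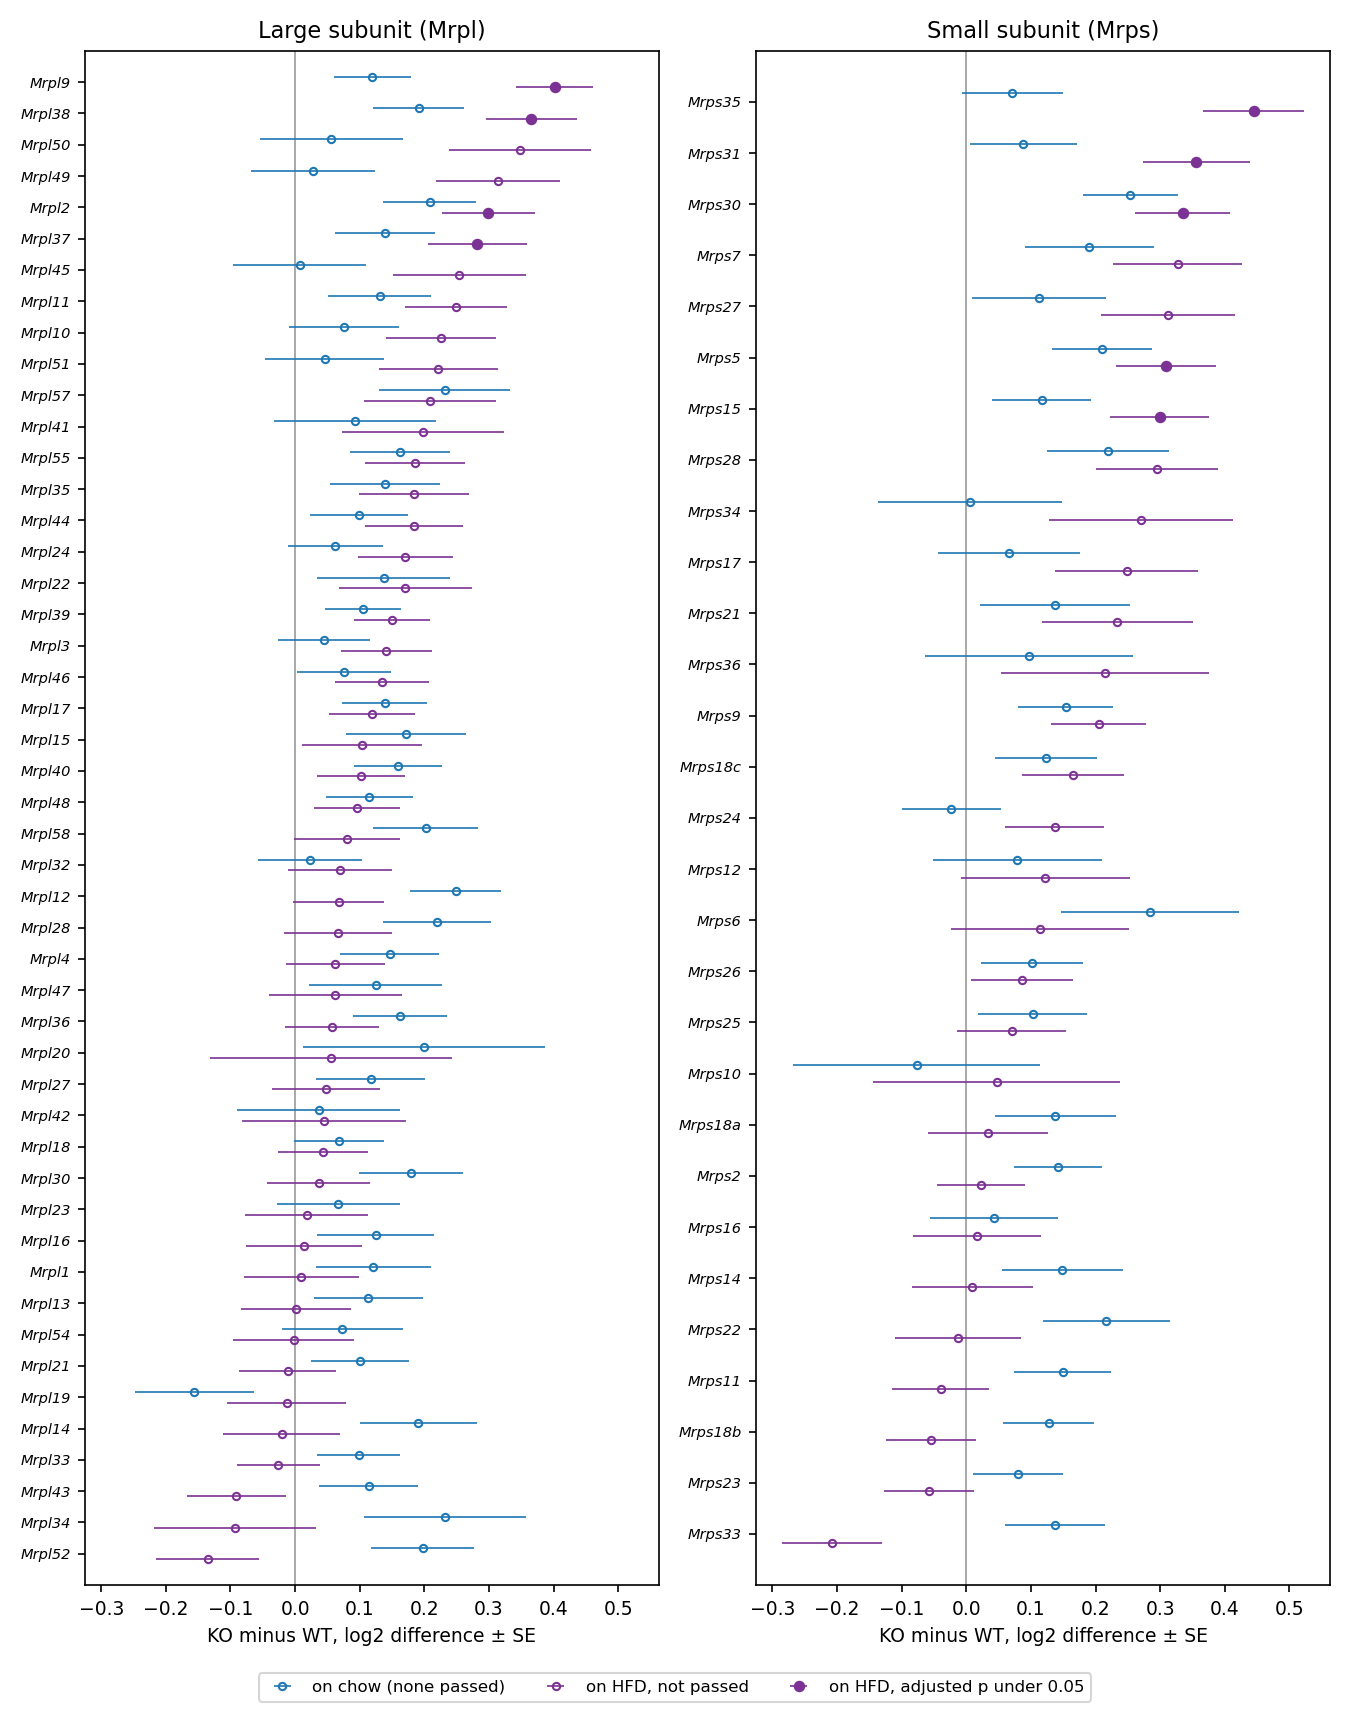
KO minus WT log2 difference ± SE of each of the 77 genes on chow and on HFD, large subunit on the left and small subunit on the right, ordered by the HFD difference. Filled points mark the 9 genes with an adjusted p under 0.05 on HFD, and most points of both diets lie to the right of 0, with Mrpl19 the clearest exception on chow and Mrps33 on HFD.

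Among the large-subunit genes, Mrpl9 had the smallest p. It is the counterpart of bacterial L9, and its promoter stretch above carries an NRF1 motif whose first base lies 28 bases before the start. On HFD it measured 8.60, 8.53 and 8.54 in WT and 8.98, 8.92 and 8.98 in KO. The lowest KO array stood well above the highest WT array, and the rise was 0.40 ± 0.06 (SE, n = 3 a group; 1.32-fold, limma adjusted p = 0.00507). On chow the same gene measured 8.89, 8.87 and 8.93 in WT and 8.94, 9.05 and 9.05 in KO, a difference of 0.12 that did not pass. The WT HFD arrays were thus the low ones of all 12.

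Mrpl38 is a mitochondria-specific protein of the central protuberance of the large subunit. It measured 9.14, 8.99 and 9.11 in WT and 9.50, 9.39 and 9.45 in KO on HFD, again without overlap. It rose by 0.37 ± 0.07 (1.29-fold, limma adjusted p = 0.00966), against 0.19 on chow, where WT measured 9.29, 9.40 and 9.30 and KO 9.45, 9.61 and 9.50. The KO arrays were the higher ones on both diets.

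Mrpl2, the counterpart of bacterial L2, which lies close to the catalytic centre, measured 9.08, 8.87 and 8.98 in WT and 9.31, 9.32 and 9.20 in KO on HFD. It was 0.30 ± 0.07 higher in KO (limma adjusted p = 0.0211) and 0.21 higher on chow, where it did not pass. Mrpl37, another protein of the large subunit with no bacterial counterpart, measured 9.11, 8.88 and 9.02 in WT and 9.28, 9.28 and 9.30 in KO on HFD. The KO arrays were tightly grouped and all higher, with a rise of 0.28 ± 0.08 (limma adjusted p = 0.0342), against 0.14 on chow. Its promoter stretch holds a YY1 motif that begins 27 bases after the start. Of the 9 called genes, 7 had a promoter window, and only the 2 of Mrpl9 and Mrpl37 held an NRF1, ETS or YY1 motif. The shares were 61.8% over the family and 22.3% over all genes tested.

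Among the small-subunit names, Mrps35 showed the highest fold. It measured 7.85, 7.64 and 7.72 in WT and 8.31, 8.05 and 8.18 in KO on HFD. Every KO array was higher, and the rise was 0.44 ± 0.08 (1.36-fold, limma adjusted p = 0.00716). On chow the arrays spanned only 8.17 to 8.23 in WT and 8.24 to 8.29 in KO, a difference of 0.07, so WT on HFD was the low group.

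Mrps31, like Mrps35 a small-subunit protein without a bacterial counterpart, measured 8.02, 7.79 and 7.90 in WT and 8.30, 8.23 and 8.24 in KO on HFD. It rose by 0.36 ± 0.08 (limma adjusted p = 0.0185), whereas on chow the genotypes overlapped, with 8.09 to 8.14 in WT and 8.08 to 8.36 in KO. Mrps30, the large-subunit protein with a small-subunit name, measured 8.16, 8.05 and 8.13 in WT and 8.50, 8.36 and 8.49 in KO on HFD. Its rise was 0.33 ± 0.07 (limma adjusted p = 0.0147), next to 0.25 on chow. For this gene KO arrays were above WT arrays on both diets.

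Mrps5 is the counterpart of bacterial S5, which sits near the messenger RNA entry, and its promoter stretch held none of the motifs. It measured 8.16, 7.99 and 8.04 in WT and 8.39, 8.44 and 8.30 in KO on HFD, a rise of 0.31 ± 0.08 (limma adjusted p = 0.0243). A second row named Mrps5, whose nearest rows are on the chromosome of the gene, gave 0.34, also past the threshold. Whether that row lies at Mrps5 was not checked. Mrps15, the counterpart of the ribosomal RNA-binding S15, measured 10.72, 10.58 and 10.60 in WT and 10.94, 10.88 and 10.97 in KO on HFD. Its KO arrays were all higher, and the rise was 0.30 ± 0.08 (limma adjusted p = 0.0266), against 0.12 on chow.

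**Figure D3:**
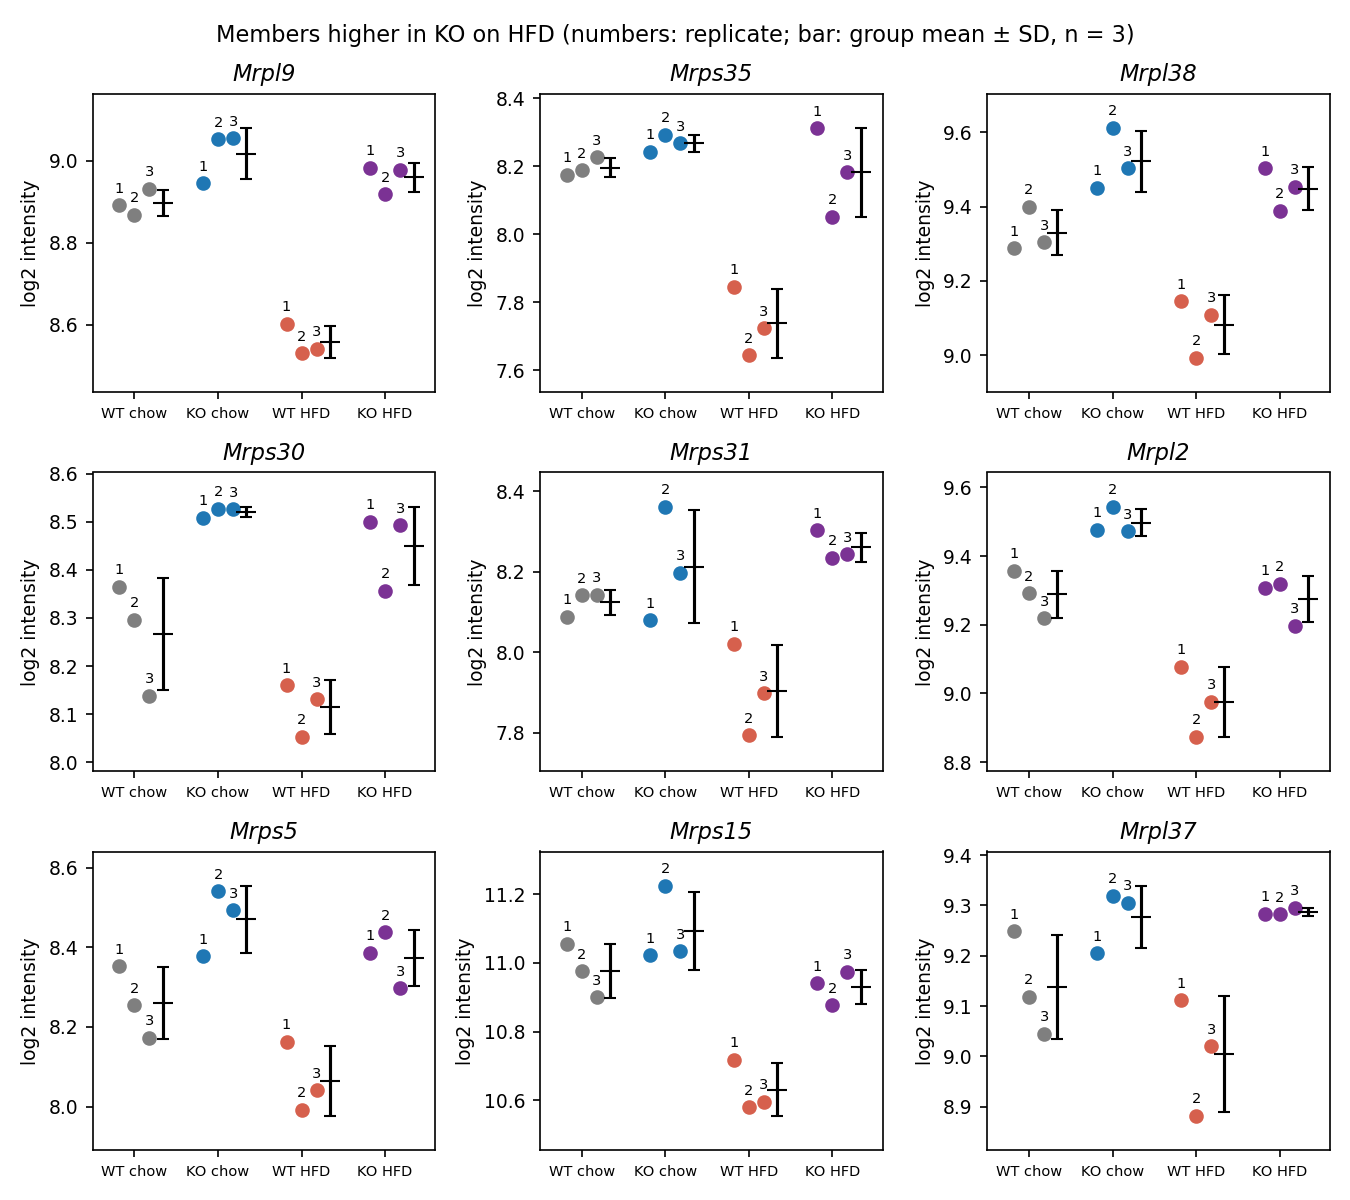
Log2 level of each of the 9 genes that passed in KO minus WT on HFD, for the 12 arrays in 4 groups of 3, numbered by replicate, with the group mean ± SD as a bar. The WT HFD arrays lie below the KO HFD arrays in every panel, and for Mrpl9 they lie at 8.53 to 8.60 against 8.87 to 9.05 for the chow arrays of both genotypes.

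Just outside the threshold on HFD were Mrps7 (0.33, limma adjusted p = 0.0522), Mrpl49 (0.31, adjusted p = 0.0532) and Mrpl50 (0.35, adjusted p = 0.0605). Their differences were as large as those of called genes, with wider errors of 0.10 to 0.11. Mrpl49 measured 9.39, 8.99 and 9.24 in WT and 9.51, 9.51 and 9.54 in KO on HFD. Its WT arrays were spread and its KO arrays nearly equal.

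The macrophage markers stood apart between the same groups, since 17 of 20 fell in KO on HFD (median -1.48) while 6 of 13 adipocyte markers rose and 1, Lep, fell (median 0.44). Of the B cell markers 3 of 7 fell and of the T cell markers 1 of 8, with medians of -0.24 and 0.04. The brown fat (7 genes), skeletal muscle (8) and epididymis (6) averages were also lower in KO on HFD without overlap. Their medians were -0.33, -0.04 and -0.04, with 2, 4 and 3 genes above 0 and 1 of each list called lower. The endothelial (10 genes), stromal progenitor (9) and mesothelial (8) averages overlapped. Their medians were 0.36, -0.01 and -0.09, with 9, 4 and 3 genes above 0. Of these, 1 endothelial marker (Tek) was called higher and 3 stromal progenitor markers (Pdgfrb, Lum and Col1a1) were called lower. Among all genes 6.65% were called higher and 6.85% lower. The part of all these markers in the result was not tested. Without WT HFD replicate 2, the array with the highest macrophage average, 3 of the 77 passed, 57 were above 0 and the median was 0.08. Leaving out either KO HFD replicate 1 or WT HFD replicate 3 also left 3 calls. Omitting KO HFD replicate 3 left 5, omitting KO HFD replicate 2 left 6, and omitting WT HFD replicate 1 gave 19. Over all genes the same omissions gave 904 to 3930 calls, against 2691 with all arrays. Mrpl9, Mrpl38 and Mrps35 passed in each of the 12 single-array omissions, and a fit on the HFD arrays alone called 0 of the 77 and 4 of all genes.

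Chow and HFD comparisons of genotype use separate arrays. A difference above 0 on both diets was seen for 62 of the 77 genes, on chow alone for 12, on HFD alone for 2 and on neither for 1. The sizes on the 2 diets did not track each other across the genes (Pearson's r = -0.01 over 77 genes, which are not independent and were read from the same arrays). The interaction, that is the genotype difference on HFD minus that on chow, passed for 0 of the 77 by limma, with 0.00502% of all genes (1 gene) passing, and 5 of the 77 (6.49%) against 17.5% of all genes had an unadjusted p under 0.05. The smallest p values belonged to Mrps35 (0.37, limma adjusted p = 0.129), Mrpl9 (0.28, 0.132), Mrps33 (-0.34, 0.149), Mrpl52 (-0.33, 0.167) and Mrps31 (0.27, 0.265). A genotype difference that depends on diet was therefore not shown for any member, including the 9 called on HFD.

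Mrps33 and Mrpl52 ran against the family on HFD. Mrps33, a small-subunit protein without a bacterial counterpart, measured 9.79, 9.76 and 9.83 in WT and 9.48, 9.61 and 9.66 in KO on HFD, and 9.61, 9.52 and 9.38 in WT and 9.70, 9.65 and 9.57 in KO on chow. The KO arrays were the lower ones on HFD without overlap, with a difference of -0.21 ± 0.08 (limma adjusted p = 0.103), against 0.14 on chow. Mrpl52, of the large subunit, measured 8.62, 8.55 and 8.62 in WT and 8.38, 8.56 and 8.44 in KO on HFD, which overlapped at 8.55 and 8.56 (-0.14 ± 0.08, limma adjusted p = 0.323), while its chow difference was 0.20. Mrpl43 (-0.09), Mrps23 (-0.06) and Mrps18b (-0.05) were the next below 0 on HFD, with limma adjusted p of 0.519 or more.

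The row used for Mrps33 is 1 of 5 whose nearest rows in the array table belong mostly to another chromosome than RefSeq gives for the gene. Of the 20 nearest rows, 18 lay on 1 other chromosome for Mrps33, 19 for Mrpl27, Mrpl41 and Mrpl51, and 20 for Mrpl48. What such rows read was not tested. A row is called at its own place where its nearest rows are mostly on the chromosome of the gene. Its position on that chromosome was not checked. The row at the own place of Mrps33 had a mean level of 4.93, against 9.63 for the row used, and gave a KO minus WT difference on HFD of 0.07 in place of -0.21. The other 3 genes with a row at both places kept the sign of their difference on HFD (0.05 and 0.02 for Mrpl27, 0.20 and 0.14 for Mrpl41, 0.22 and 0.23 for Mrpl51), and for Mrpl48 there was no other row. None of the 9 called genes was read in this way.

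The diet comparison within WT showed 7 members lower and 1 higher on HFD. Mrps35, Mrpl9, Mrps15, Mrpl2, Mrpl38, Mrps26 and Mrpl49 fell and Mrps33 rose, and the median over the 77 was -0.02, against -0.03 over all genes. These 8 calls are 10.4% of the family, below the 24.1% of all genes that passed (11.8% higher and 12.3% lower). With the arrays set to the same median the split turned to 7 higher and 3 lower, with 4 of the original 8 still called, so the balance of directions in this comparison depends on the scaling. At an unadjusted p under 0.05 there were 19 of 77 genes (24.7%), against 35.2% of all genes.

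Since this comparison and KO minus WT on HFD share the WT HFD arrays, their values are set side by side only. Mrps35 fell by 0.46 ± 0.08 in WT from chow to HFD (limma adjusted p = 0.00257), with chow arrays at 8.17, 8.19 and 8.23 and HFD arrays at 7.85, 7.64 and 7.72, and its difference in KO was -0.09. The HFD arrays were the low ones in WT, and in KO the chow range of 8.24 to 8.29 lay inside the HFD range of 8.05 to 8.31. Mrpl9 fell by 0.34 ± 0.06 in WT (limma adjusted p = 0.00294), next to -0.06 in KO. Mrps15 fell by 0.35 ± 0.08 (adjusted p = 0.00823) and Mrpl2 by 0.31 ± 0.07 (adjusted p = 0.0097) in WT, next to -0.16 and -0.22 in KO, where neither passed.

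Mrpl38 fell by 0.25 (limma adjusted p = 0.0264), Mrps26 by 0.25 (adjusted p = 0.0433) and Mrpl49 by 0.29 (adjusted p = 0.0497) in WT. Mrps26 is a small-subunit protein without a bacterial counterpart, and its arrays were low on HFD in both genotypes, with 9.51, 9.46 and 9.39 on chow and 9.31, 9.20 and 9.12 on HFD in WT, and 9.62, 9.57 and 9.48 on chow and 9.16, 9.37 and 9.35 on HFD in KO. The KO difference, -0.26 (limma adjusted p = 0.0743), was of the same size but did not pass. In single-array omissions, Mrpl2, Mrpl9, Mrps15 and Mrps35 kept the call in all 12, Mrps33 in 10, Mrpl38 in 8, Mrps26 in 3 and Mrpl49 in 2.

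Mrps33 rose in WT on HFD by 0.29 ± 0.08 (limma adjusted p = 0.0201) on the row used, and its own-place row gave 0.14, which did not pass. Mrps6, the counterpart of bacterial S6, measured 10.22, 10.35 and 9.96 on chow and 10.56, 10.37 and 10.68 on HFD in WT, with all HFD arrays higher (0.36 ± 0.14, limma adjusted p = 0.0865). Nearly all of Slc5a3, the gene of a sodium/myo-inositol cotransporter, lies within Mrps6 in RefSeq, 29138 bases of it, and Slc5a3 measured 0.46 higher (adjusted p = 0.0862). Which of the overlapping genes the probes read was not tested, and the labels' kit makes a sense-strand target. Mrpl54 (0.24), Mrpl15 (0.22) and Mrps11 (0.17) were the next above 0, none past the threshold. For 11 genes every WT HFD array exceeded every WT chow array, where 17.3% of all genes did so, and for 10 genes every one was lower, where 21.6% of all genes were.

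In KO, 0 of the 77 passed between diets by limma, where 6.34% of all genes did (2.8% higher and 3.54% lower). At an unadjusted p under 0.05 there were 8 genes (10.4%), against 22.8% of all genes, and the median was -0.04. The smallest p values belonged to Mrpl19 (0.32 higher on HFD, limma adjusted p = 0.0664), Mrps26 (-0.26, 0.0743), Mrpl12 (-0.23, 0.0788), Mrpl14 (-0.29, 0.0792) and Mrpl2 (-0.22, 0.0908). Mrpl19 measured 7.51, 7.40 and 7.39 on chow and 7.86, 7.77 and 7.61 on HFD in KO, so every HFD array was higher. Mrpl12, by contrast, was lower on every KO HFD array than on every KO chow array. For 4 genes all KO HFD arrays were above all KO chow arrays, where 15.1% of all genes were, and for 11 they were all below, where 13.7% of all genes were.

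Large and small subunit genes were set against each other within each array. The mean of the Mrpl genes minus the mean of the Mrps genes was -0.08, -0.04 and -0.09 in WT and -0.06, -0.08 and -0.06 in KO on the chow diet. On HFD it was -0.06, -0.03 and -0.05 in WT and -0.08, -0.07 and -0.10 in KO. All 12 values lay between -0.10 and -0.03. On HFD the KO arrays were the lower ones, with a group mean of -0.08 against -0.05 in WT and a pooled SD within groups of 0.02, and this difference was not tested. On chow the genotypes overlapped, with group means of -0.07 in WT and -0.07 in KO. The size of this balance rests on which rows are read, since with the row at the gene's own place the WT HFD mean was 0.03 and the KO HFD mean -0.01. On chow the large subunit averaged 8.62 in WT and 8.74 in KO, and the small 8.69 and 8.81. On HFD the large subunit averaged 8.60 in WT and 8.72 in KO, and the small 8.65 and 8.80.

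By KO minus WT on HFD, 4 of 48 large-subunit names rose (median 0.09, 40 above 0) and 5 of 29 small-subunit names rose (median 0.14, 24 above 0). These are 8.33% and 17.2%, against 6.65% of all genes, whose median was 0.02. The difference between the subunits was not tested. Placed by known structure, with Mrps30 and Mrps18a counted in the large subunit and Mrps36 in neither, 5 of 50 large and 4 of 26 small subunit genes rose, with medians of 0.09 and 0.13. Mrps36 is known as a component of the alpha-ketoglutarate dehydrogenase complex, and it measured 0.21 higher in KO on HFD and 0.10 on chow, neither past the threshold. Its SE of 0.16 was among the widest of the family.

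The 3 paralogs Mrps18a, Mrps18b and Mrps18c, which share an ancestor in bacterial S18, were not called on either diet. On chow their KO minus WT differences were 0.14, 0.13 and 0.12, and on HFD they were 0.03, -0.05 and 0.16. The interaction did not pass for any of them, and differences between the paralogs were not tested. Mrps18c measured 10.36, 10.33 and 10.38 in WT and 10.53, 10.47 and 10.56 in KO on HFD, so its KO arrays were all higher. Mrps18b measured 10.09, 9.95 and 10.12 in WT and 9.96, 9.96 and 10.07 in KO, which overlapped.

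Mrpl3, Mrpl44, Mrps16, Mrps22 and Mrps34 are among the members known from inherited mitochondrial disease. On chow the first 3 of these measured 0.04, 0.10 and 0.04 higher in KO, and on HFD 0.14, 0.18 and 0.02 higher. Mrps22 was 0.22 higher on chow, with 8.28, 8.29 and 8.11 in WT and 8.29, 8.60 and 8.44 in KO, and -0.01 on HFD. Mrps34 was 0.01 on chow and 0.27 on HFD, where WT measured 9.38, 8.76 and 9.12 and KO 9.30, 9.52 and 9.24, with overlap. None of these 5 passed the threshold on either diet, and Mrpl3 and Mrps22 both hold the ETS letters shown above.

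The rest of the mitochondrial translation machinery was read from lists of other genes. In KO on HFD, 6.65% of all genes rose and 6.85% fell. Of 28 assembly and ribosomal RNA modification genes, 6 rose and 0 fell in KO on HFD (median 0.21), among them Mettl17 (0.35, limma adjusted p = 0.0124), Ngrn (0.40, 0.0246) and Ybey (0.39, 0.0284), which act on the mitochondrial ribosome or its RNA. Of 18 aminoacyl-tRNA synthetases, 6 rose and 0 fell (median 0.15), led by Iars2 (0.58, limma adjusted p = 0.00444), Nars2 (0.43, 0.0067) and Fars2 (0.38, 0.00987), which charge isoleucine, asparagine and phenylalanine transfer RNAs. Iars2 measured 9.51, 9.37 and 9.49 in WT and 10.14, 10.01 and 9.97 in KO on HFD, and 9.84 to 9.93 in WT on chow, so WT on HFD was again the low group.

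Of 18 translation factors and messenger RNA handling genes, 1 rose on HFD, Oxa1l (0.21, limma adjusted p = 0.0312), which inserts newly made proteins into the inner membrane, and all 18 lay above 0 (median 0.16). Mtrf1 (0.31) and Tufm (0.29) did not pass (limma adjusted p = 0.0709 and 0.0711). Of 4 measured mitoribosome proteins outside the Mrpl and Mrps names, none passed and 2 lay above 0. Dap3, a small-subunit protein, had the smallest p (0.28, limma adjusted p = 0.0828), and Gadd45gip1 was at 0.19 (0.171). Ptcd3 was lower in KO, at -0.35 on HFD (limma adjusted p = 0.247) and -0.20 on chow. Of 15 transcription and biogenesis regulators, Twnk (0.35, adjusted p = 0.0181) and Tfb2m (0.43, adjusted p = 0.0432) rose, and Ppargc1a did not pass (0.60, limma adjusted p = 0.0533). In the chow comparison the medians of these 5 lists ran from 0.01 for the regulators to 0.09 for the 4 further ribosomal proteins, and 0 genes passed, as among all genes.

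Respiratory chain subunits, which are assembled with the products of mitochondrial translation, gave more calls and larger medians. In KO on HFD 19 of 44 rose and 0 fell, with a median of 0.25 against 0.10 for the 77 genes, and on chow all 44 lay above 0 with a median of 0.16 and 0 passing. In WT from chow to HFD, 25 of the 44 fell and 1 rose (median -0.27), where the ribosomal proteins had 7 falls in 77 (9.09%). Among all genes 12.3% fell and 11.8% rose in that comparison. The 61 measured cytosolic ribosomal proteins had a median of -0.03 in KO on HFD, with 1 rise, and of 0.02 on chow. The difference between the lists was not tested, and the KO minus WT counts on HFD stand beside the 13.5% of all genes that passed there.

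**Figure D4:**
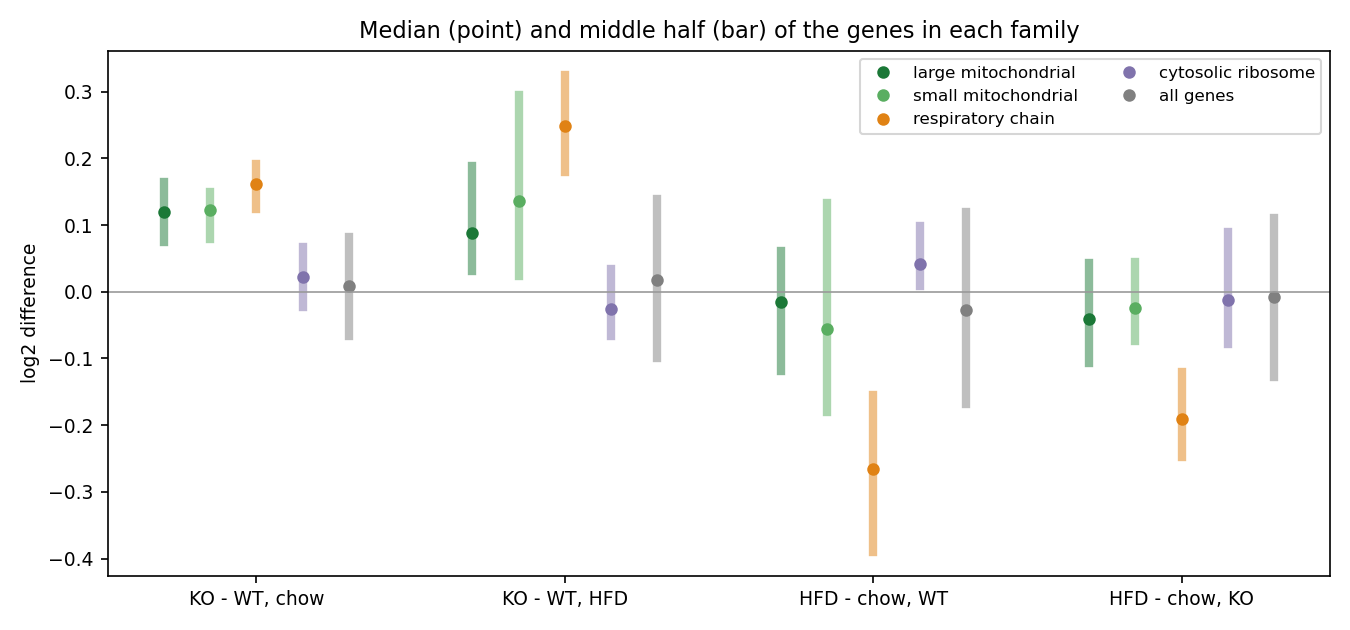
Median log2 difference (points) and the range of the central quartiles (bars) over the genes of each family in the 4 pairwise comparisons of genotype and diet, for the large and small mitochondrial subunits, respiratory chain subunits, cytosolic ribosomal proteins and all genes. In KO minus WT on HFD the median is 0.09 for the large and 0.14 for the small mitochondrial subunit, 0.25 for the 44 respiratory chain subunits and -0.03 for the 61 cytosolic ribosomal proteins.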

How the data were processed

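White adipose tissue of 4 groups of 3 arrays was measured on Affymetrix arrays. The authors deposited log2 values in a table of 34760 rows. The submitters' processing notes name the affy tool, and its version, background correction, summarisation and normalization were not given in the sources used here. Rows were named through GEO's platform annotation, and 21640 rows carried 1 symbol. All 77 members matched RefSeq by Entrez identifier.

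A model with 1 mean per group (8 residual degrees of freedom) was fitted with limma 3.58.1 in R 4.3.3 over the highest-mean row of each of 19937 genes, after a check on simulated data. A change was called at a Benjamini-Hochberg adjusted p under 0.05. The number of arrays and the spread between them set the precision. Members and lists were chosen with earlier results of these data known.

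Genes were drawn from a rule: the highest and lowest mean of each subunit, the 5 smallest p in each direction of each comparison and for the interaction, all called members, a fixed set (disease genes, Mrps18 paralogs, Mrpl12, Mrps30, Mrps36, Mrps6 with Slc5a3), and the 3 smallest p of each other pathway list. Not every gene under the rule was printed. Respiratory chain genes and some uncalled members of the diet comparison in KO were left out. Mrpl50, Mrps7, other near-threshold members and Lep were added after their values were seen. Alternatives covered array scaling, quantile normalization, array weights, variance model, filter, rows, samples fitted, replicate block and each array left out. The row at the gene's own place was added after the data were seen.

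Same-numbered arrays of different groups deviated with correlations of -0.408 to 0.379, over 0.1 in 4 of 18 pairs, so the numbers were not taken to pair arrays.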

Additional observations from a re-analysis of the deposited data

Results flagged for a closer look

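Mrpl52 moved in opposite directions with diet in the genotypes. In WT the HFD arrays measured 8.62, 8.55 and 8.62, all above the chow arrays at 8.44, 8.54 and 8.38 (difference 0.15). In KO the HFD arrays measured 8.38, 8.56 and 8.44, all below the chow arrays at 8.58, 8.79 and 8.58 (difference -0.186). Neither difference passed the threshold, and the test of the difference between them, the interaction, gave -0.33 with a limma adjusted p of 0.167.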

How the results depend on the processing

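In KO minus WT on HFD, 9 calls became 30 with array weights, 0 with only the compared groups fitted, 16 among genes above the median level and 3 to 19 with 1 array left out. Over all genes, calls in the same settings went from 2691 of 19937 to 7648, 4, 2871 of 9968 and 904 to 3930. HFD minus chow in WT had 8 calls, 35 with array weights, 4 with only the compared groups, 5 with the replicate block and 4 to 11 with 1 array left out. Over all genes these were 4802, 9985, 3372, 4306 and 3072 to 5285. HFD minus chow in KO had 0 calls, 2 with array weights, 1 with arrays at the same median, 1 after quantile normalization and 0 to 1 with 1 array left out. Over all genes these were 1264, 2137, 1692, 1094 and 62 to 1509. The interaction had 0 calls, 4 with array weights and 0 to 1 with 1 array left out. Over all genes these were 1, 2819 and 0 to 2060. With arrays at the same median, the median change from chow to HFD was 0.0773 (WT) and 0.0287 (KO) for the large subunit and 0.0373 and 0.0455 for the small, whose WT median ran from -0.106 to 0.0211 with 1 array left out. The large minus small mean (WT chow, KO chow, WT HFD, KO HFD) was -0.0196, -0.0186, -0.000862 and -0.0382 with a gene's rows averaged, and 0.00497, 0.00962, 0.0330 and -0.0127 with the row at the gene's own place. The replicate block gave 9 calls in KO minus WT on HFD, 8 of them shared, and 0 in KO minus WT on chow, HFD minus chow in KO and the interaction. Over all genes these were 2325, 0, 740 and 0. The estimation of the array weights stopped before it converged, so values with array weights may be unreliable.

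Sign changes of single KO minus WT differences fell on genes without a call. With 1 array left out, Mrps10 ranged from -0.186 to 0.0665, Mrps24 from -0.0744 to 0.0142, Mrps16 from -0.0437 to 0.0998, Mrps34 from -0.0514 to 0.0937 and Mrps36 from -0.0174 to 0.278 on chow. On HFD the ranges were -0.0284 to 0.0679 for Mrps18a, -0.0493 to 0.104 for Mrps16 and -0.0858 to 0.0649 for Mrps22. Array weights gave -0.0475 for Mrps34 on chow, and -0.0211 for Mrps18a and -0.00497 for Mrps6 on HFD. With its own-place row Mrps33 became 0.0689 on HFD, and its interaction 0.12. The cause was not tested. Array number and the spread between 3 arrays limit all of these.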
